A study of Mus musculus with 6 samples.

Results

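Egr1, Egr2, Egr3, Nr4a1, Nr4a2 and Nr4a3 are transcription factor genes known for their rapid induction after the T cell receptor is engaged. Ribosome footprints, the short mRNA fragments that a ribosome shields from nuclease, were compared for these 6 genes between activated and resting mouse CD4+ T cells. The genes were found by their Ensembl identifiers, and all 6 were among the 22322 genes of the deposited count table. All 6 passed the filter on low counts in coding sequence (CDS), which left 6775 genes to be tested. The identifiers in the table are ENSMUSG00000038418.7 for Egr1, ENSMUSG00000037868.14 for Egr2 and ENSMUSG00000033730.3 for Egr3. Those of the other family are ENSMUSG00000023034.6 for Nr4a1, ENSMUSG00000026826.12 for Nr4a2 and ENSMUSG00000028341.8 for Nr4a3.

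Both groups were CD4+ T lymphocytes of C57BL/6J females aged 6 weeks, isolated from spleen and lymph nodes by negative selection. The activated group (3 libraries) had been stimulated with magnetic beads that carry antibodies against CD3 and CD28, and the resting group (3 libraries) is labelled as resting. Each library is labelled untreated at 0 h, which is the state before the transcription and translation inhibitors used elsewhere in the study. The sources used here do not say how long the activated cells had been on the beads. Biological replicates are numbered 2, 3 and 4 in each group, and whether each came from its own animals is not stated, so a p-value here reflects only how far these libraries differ, which may be technical.

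Egr1, Egr2 and Egr3 encode zinc finger proteins that bind GC-rich DNA. MAP kinase signalling to serum response factor and its partners is a known route to their transcription, though not the only one. In T cells Egr2 and Egr3 are known as brakes on activation that take part in anergy, while Egr1 is linked to the early activation programme. Nr4a1 (Nur77), Nr4a2 (Nurr1) and Nr4a3 (Nor1) encode orphan nuclear receptors whose activity depends mainly on how much protein is made, and Nr4a1 is widely used as a reporter of T cell receptor signal strength. The Nr4a factors are also known for roles in regulatory and exhausted T cells.

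Stretches of DNA just before annotated start sites of Egr2, Nr4a1, Nr4a2 and Nr4a3 are shown here, with motif matches marked. Whether the matches have a part in the change of footprints was not tested. The stretches come from RefSeq promoter windows on build GRCm38.p6. Windows of these genes were searched, and none of Egr1 or Egr3 was. Each motif was searched on both strands in the 250 bases before an annotated start. The motifs were TGACG, the core of the cyclic AMP response element bound by CREB family proteins, the CArG box bound by serum response factor, and GCGNGGGCG, the form of site that Egr proteins bind. The starts used for Nr4a1, Nr4a3 and Egr2 lie inside the annotated span of the gene, so other transcripts begin further upstream. Capitals mark the matches, and TGACG reads CGTCA where it lies on the opposite strand.
Nr4a1, chr15:101266596-101266845, plus strand, bases 250 to 1 before the start: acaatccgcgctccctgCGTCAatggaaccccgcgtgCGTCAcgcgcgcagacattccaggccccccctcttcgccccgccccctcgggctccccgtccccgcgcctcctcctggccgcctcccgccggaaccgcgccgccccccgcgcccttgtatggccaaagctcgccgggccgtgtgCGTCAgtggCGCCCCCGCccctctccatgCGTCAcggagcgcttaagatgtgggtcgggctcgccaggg
Nr4a2, chr2:57124104-57124133, minus strand, bases 130 to 101 before the start: gccgggcTGACGgggccgcTGACGcgcttg
Nr4a3, chr4:48045074-48045104, plus strand, bases 231 to 201 before the start: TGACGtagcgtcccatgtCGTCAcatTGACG
Egr2, chr10:67537792-67537821, plus strand, bases 77 to 48 before the start: tcagtCCATATATGGgcagcgaCGTCAcgg

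Each of the 3 Nr4a windows held 4 matches to TGACG, a number reached or passed by 0.137% of the 32851 windows in the table. In Nr4a1 they began 233, 213, 69 and 40 bases before the start, in Nr4a2 200, 144, 123 and 111 bases before it, and in Nr4a3 231, 213, 205 and 147 bases before it. No CArG box was found in the Nr4a windows. Egr2 has 5 annotated starts, and 4 of its windows held a CArG box, against 1.47% of all windows. In 3 of them the box lay beside 2 matches to TGACG, and 3.9% of all windows held at least 2. These 3 windows overlap and share the same box and the same 2 matches, so they are not separate finds. One match to GCGNGGGCG was found in Nr4a1 and one in Nr4a2, against 4.7% of windows. The windows of these genes were 54% to 80% G or C where the median window was 52.4%. The matches describe the sequence, and no binding was measured.

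By that annotation Egr2 lies at chr10:67534469-67542188, Egr3 at chr14:70077317-70082613 and Nr4a1 at chr15:101253902-101274795. Nr4a2 lies at chr2:57106830-57124003 and Nr4a3 at chr4:48045078-48086447. Egr1 was left out of this look-up, so its position and overlaps are not given. The span of Egr2 overlaps that of the non-coding gene Gm32255, and the span of Nr4a2 overlaps that of LOC105244150. The sources used here do not say whether the counting used strand, so footprints inside those overlaps cannot be assigned to a gene with certainty.

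CDS counts summed to between 437200 and 1074656 per library. They were scaled with TMM factors, which correct library totals for a few genes taking a large share, and given as CPM, counts scaled to a common library total. The factors were 1.12 to 1.13 in resting and 0.880 to 0.894 in activated libraries.

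CDS footprints of all 6 genes rose in activated cells, by 16.4-fold to 38.3-fold. Over all genes tested, 24.1% rose, 1.49% rose by at least 8-fold and 0.561% by at least 16-fold, so rises of this size were rare in the table. The 16-fold cut lies just under the smallest rise of the 6 genes, and these shares include the 6 genes. The median log2 change was 5.00 over the 6 genes and -0.04 over all genes tested. TMM scaling itself holds the bulk of genes near 0, and with library totals alone the median of all genes was -0.375. Such changes are relative to the other genes of a library and do not measure amounts per cell. For each of the 6, the lowest activated library lay above the highest resting library, as it did for 28.1% of all genes tested. Of all genes called in either direction, 53% were higher with TMM, 42.5% with upper quartile factors and 30% with library totals alone, while the 6 genes were higher under each. Egr3 entered the test through its activated libraries, since none of its resting libraries reached the filter's minimum; the other 5 reached it in all 3. Ribosome footprints alone cannot tell more mRNA from more ribosomes per mRNA, and in a bulk sample more cells carrying the mRNA and more mRNA per cell cannot be told apart either. Adjusted p-values are from edgeR's quasi-likelihood test over all genes tested, called at 0.05.

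**Figure D1:**
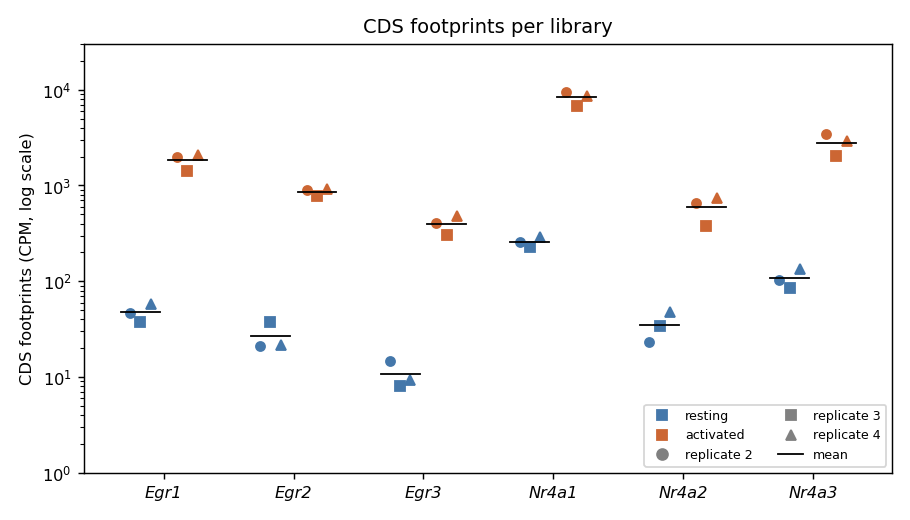
CDS footprints in CPM (log scale) for each of the 6 genes, with resting libraries in blue, activated libraries in orange, symbols for the replicate number and a line at each mean. Each activated library lies above each resting library for every gene, and activated replicate 3 is the lowest activated point each time.

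Per-library values are given below in the order of replicates 2, 3 and 4. Egr1 had 22, 23 and 38 CDS counts in the resting libraries and 882, 1116 and 1953 in the activated ones. Activated replicate 4 had the most counts and was also the deepest library. After scaling, Egr1 went from 47.3 ± 10.6 to 1829 ± 371 CPM (SD, n = 3), and the log2 change was 5.26 (SE 0.23; adjusted p = 1.09e-10 in edgeR). Of all genes tested, 0.133% had a higher log2 change.

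Egr2, which together with Egr3 restrains responses of stimulated T cells, had 10, 23 and 14 CDS counts in the resting libraries and 391, 615 and 867 in the activated ones. Resting replicate 3 was the high one of the resting libraries, at 37.3 CPM against 21.0 and 21.5. Egr2 went from 26.6 ± 9.26 to 861 ± 78.5 CPM (SD, n = 3), and the log2 change was 4.99 (SE 0.22; adjusted p = 1.2e-10 in edgeR). Its activated libraries were the most alike of the 6 genes, with an SD of 9.11% of the mean.

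Egr3, whose product shares most of its known T cell roles with Egr2, had 7, 5 and 6 CDS counts in the resting libraries and 179, 244 and 455 in the activated ones. The group totals were 18 and 878 counts, so the size of its change rests on a small resting count. It went from 10.7 ± 3.54 to 399 ± 89 CPM (SD, n = 3), and the log2 change was 5.24 (SE 0.28; adjusted p = 6.89e-10 in edgeR). The lowest activated library was still 20.8 times the highest resting library.

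Nr4a1, the reporter of receptor signalling, had 122, 142 and 190 CDS counts in the resting libraries and 4208, 5357 and 8136 in the activated ones. The resting libraries differed from one another by little, and the groups were far apart. Nr4a1 went from 259.6 ± 31 to 8319 ± 1444 CPM (SD, n = 3), and the log2 change was 5.00 (SE 0.19; adjusted p = 3.64e-11 in edgeR). Only 1 gene of the 6775 had a lower p. It took 0.0283 ± 0.0035% of all CDS counts at rest and 0.723 ± 0.121% in activated cells.

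Nr4a2, best known for its role in dopamine neurons, had 11, 21 and 31 CDS counts at rest and 287, 301 and 700 in activated cells. Its libraries were the most spread of the 6 genes, with an SD of 35.1% of the resting mean and 32.2% of the activated mean. At rest Egr2 (34.8%) and Egr3 (33.1%) were close to that spread. Nr4a2 went from 34.9 ± 12.3 to 592 ± 191 CPM (SD, n = 3), and the log2 change was 4.04 (SE 0.28; adjusted p = 1.95e-08 in edgeR). The rise of 16.4-fold was the smallest of the 6, and the lowest activated library was 7.94 times the highest resting one.

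Nr4a3 had 49, 53 and 88 CDS counts at rest and 1511, 1628 and 2753 in activated cells. It went from 108 ± 25 to 2803 ± 702 CPM (SD, n = 3), and the log2 change was 4.69 (SE 0.23; adjusted p = 3e-10 in edgeR). Activated replicate 2 was the high one here, at 3433 CPM against 2047 and 2931.

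**Figure D2:**
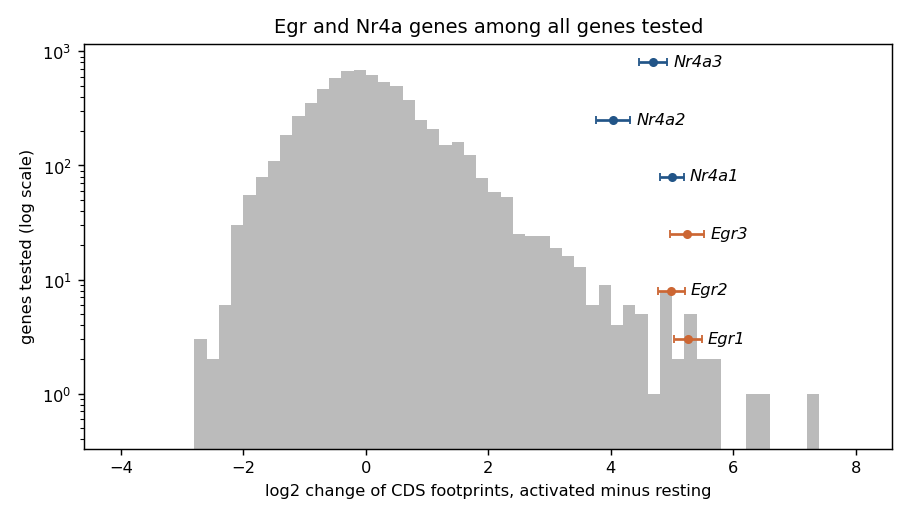
Histogram of the log2 change of CDS footprints (activated minus resting) over all 6775 genes tested, with the number of genes on a log scale, and each of the 6 genes as a point with its SE; the height of a point has no meaning. The 6 genes lie between 4.04 and 5.26, in the thin upper tail.

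Ranked by log2 change, Egr1, Egr3, Nr4a1, Egr2, Nr4a3 and Nr4a2 stood at places 10, 12, 16, 17, 23 and 36 of 6775. Each neighbour in this order differed from the next by less than the SE of the difference, with the 2 taken as independent, except Nr4a3 from Nr4a2 (difference 0.65, SE 0.36). The share of CDS counts that lay on the 6 genes was 0.0532 ± 0.0076% at rest and 1.29 ± 0.24% in activated libraries (SD, n = 3). Of this, the Nr4a genes held 1.02 ± 0.19% and the Egr genes 0.269 ± 0.046% in activated cells, against 0.0439 ± 0.0072% and 0.00923 ± 0.00046% at rest. These shares sum raw counts over genes of different coding length, so they describe where footprints lay and not which protein was made most.

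Activated replicate 3 was the lowest of the activated libraries for 6 of 6 genes, whereas it was the lowest for 27.1% of all genes tested. For Egr1 the activated values were 2004, 1403 and 2079 CPM in replicates 2, 3 and 4, and for Nr4a1 they were 9562, 6734 and 8661. Within the resting group, replicate 4 was the highest for Egr1, Nr4a1, Nr4a2 and Nr4a3, replicate 3 for Egr2 and replicate 2 for Egr3. Without activated replicate 3 the log2 change was 5.16 for Nr4a1 and 4.90 for Nr4a3, the highest values these genes took under any processing tried.

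Ratios between members of a family within a library do not depend on the scaling, and they were used to ask whether paralogues rose by the same factor. For the 3 Egr genes each difference in ratio was smaller than the SD of the resting libraries. Egr1 made up 55.7 ± 10.2% of the counts of Egr1 to Egr3 at rest and 59 ± 2.2% in activated cells, Egr2 31.6 ± 11.7% and 28.2 ± 2.57%, and Egr3 12.7 ± 4.55% and 12.9 ± 0.9% (SD, n = 3). The log2 ratio of Egr1 to Egr2 was 0.84 ± 0.74 at rest and 1.07 ± 0.18 in activated cells, a difference of 0.23 (two-sided exact permutation p = 0.8). For Egr1 to Egr3 the difference was 0.11 (exact permutation p = 0.7), and for Egr2 to Egr3 it was -0.12 (exact permutation p = 0.8). With so few resting counts the ratios at rest are loose, and a difference of the size of their SDs, 0.49 to 0.81 on the log2 scale, would lie within that spread.

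Within the Nr4a family Nr4a1 took a larger share of the counts in every activated library than in every resting one. It made up 67%, 65.7% and 61.5% of the family's CDS counts at rest and 70.1%, 73.5% and 70.2% in activated cells. Nr4a2 made up 6.04%, 9.72% and 10.03% at rest and 4.78%, 4.13% and 6.04% in activated cells. Every activated library was lower for Nr4a2 than every resting one, but the nearest pair differed only as 6.040% from 6.044%. The log2 ratio of Nr4a1 to Nr4a2 went from 2.91 ± 0.44 to 3.85 ± 0.31 (SD, n = 3), a difference of 0.94, or 1.92-fold. That of Nr4a1 to Nr4a3 went from 1.28 ± 0.16 to 1.59 ± 0.12, a difference of 0.31. Both had an exact permutation p of 0.1, the smallest that 3 libraries against 3 can give, and 0.3 after adjustment over the 6 ratios, so neither passed a threshold of 0.05. In intersection-nonempty mode, a counting rule explained below, these differences were smaller, at 0.88 and 0.21 (adjusted exact permutation p = 0.6 for each). The difference for Nr4a2 to Nr4a3 was -0.63 with overlapping groups (exact permutation p = 0.2). With 3 libraries in each group, a ratio that misses the threshold does not show that the paralogues rose alike.

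**Figure D3:**
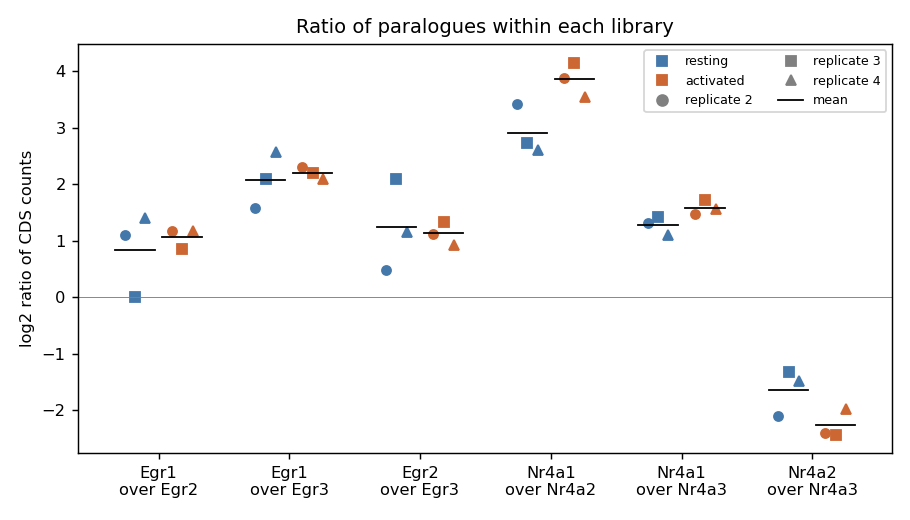
Log2 ratio of CDS counts of each pair of paralogues in each library (pseudocount 0.5), with resting libraries in blue, activated libraries in orange and a line at each mean. In this main CDS column the groups separate for Nr4a1 over Nr4a2 and Nr4a1 over Nr4a3 and overlap for the other 4 pairs.

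Footprints in the 5' UTR, the leader before the start codon, were counted in columns of their own, from the same libraries. Whether a footprint across the start codon could be counted in both regions was not checked. Egr1, Egr2, Nr4a1, Nr4a2 and Nr4a3 were tested there and each was higher in activated cells, as were 22.2% of the 2200 genes tested. Of these 5, only Nr4a1 and Nr4a3 reached the filter's minimum in all 3 resting libraries; the others entered the test through their activated libraries. No leader value of an activated library overlapped the resting ones for any of the 5, which held for 26.9% of all genes tested.

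Egr1 had 4, 10 and 11 leader counts in the resting libraries and 844, 793 and 894 in the activated ones. The activated libraries were close to each other in raw counts although replicate 2 is the shallowest of the 3. The rise was 71.1-fold (log2 change 6.15, SE 0.31; adjusted p = 3.31e-09 in edgeR), the highest of all genes tested on the leader. Nr4a1 had 9, 14 and 14 leader counts at rest and 809, 736 and 809 after activation, a 44.6-fold rise (log2 change 5.48, SE 0.29; adjusted p = 3.63e-09 in edgeR). The CDS of these genes rose 38.3-fold and 32-fold, and neither difference between the regions passed its test (adjusted p = 0.46 and 0.718 in edgeR).

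Nr4a3 had 32, 47 and 65 leader counts at rest and 1409, 1410 and 2211 after activation (log2 change 4.58, SE 0.26; adjusted p = 5.23e-09 in edgeR). Egr2 had 3, 5 and 6 at rest and 108, 208 and 215 after activation (log2 change 4.63, SE 0.31; adjusted p = 4.55e-08 in edgeR). Nr4a2 had 2, 11 and 8 at rest and 130, 131 and 346 after activation (log2 change 4.26, SE 0.41; adjusted p = 2.12e-06 in edgeR). Egr3 had 0 leader counts in every library, although 878 CDS counts lay on it in activated cells. The sources used here do not say whether the annotation used for counting gave Egr3 a 5' UTR, so its 0 counts set no bound.

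Set against the CDS of the same gene, the leader carried many footprints of Nr4a3 in both groups. Its leader counts per 100 CDS counts were 75.9 ± 11.8 at rest and 86.7 ± 6.47 after activation (SD, n = 3), with overlapping groups. Over all genes summed, the values were 14.6 ± 0.85 and 16.5 ± 3.09. Nr4a1 lay below that level at 8.2 ± 1.44 and 14.3 ± 4.67.

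Egr1 had the highest fitted change of this ratio among the 5 genes, and it did not pass the threshold. Per 100 CDS counts it had 18.2, 43.5 and 28.9 leader counts in the resting libraries and 95.7, 71.1 and 45.8 in the activated ones. Each activated value was above each resting value, with the lowest of the former close to the highest of the latter. Of the 5046 genes tested on the ratio that had a CDS count in every library, 14.4% had no overlap in this direction. In 1 model over both regions the log2 change of the ratio was 0.87 (SE 0.38), with an unadjusted p of 0.0287 and an adjusted p of 0.46 in edgeR. Nr4a1 went from 7.38, 9.86 and 7.37 to 19.2, 13.7 and 9.94, also without overlap but with a near tie of 9.94 and 9.86, and its log2 change of the ratio was 0.45 (SE 0.31; adjusted p = 0.718 in edgeR).

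Of the 5 genes, 0 passed the threshold on this ratio in edgeR, where 0.344% of 5238 genes did, and Egr1 alone had an unadjusted p under 0.05. The log2 changes of the ratio were -0.35 for Egr2 (SE 0.49), 0.20 for Nr4a2 (SE 0.46) and -0.11 for Nr4a3 (SE 0.27), with edgeR adjusted p-values of 0.902, 0.939 and 0.94. For Egr1, Nr4a1 and Nr4a3 the activated library with the highest ratio was replicate 2 and that with the lowest was replicate 4, and so it was over all genes summed, at 20.02 and 14.3. The part of that library difference in the values of Egr1 and Nr4a1 was not tested.

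**Figure D4:**
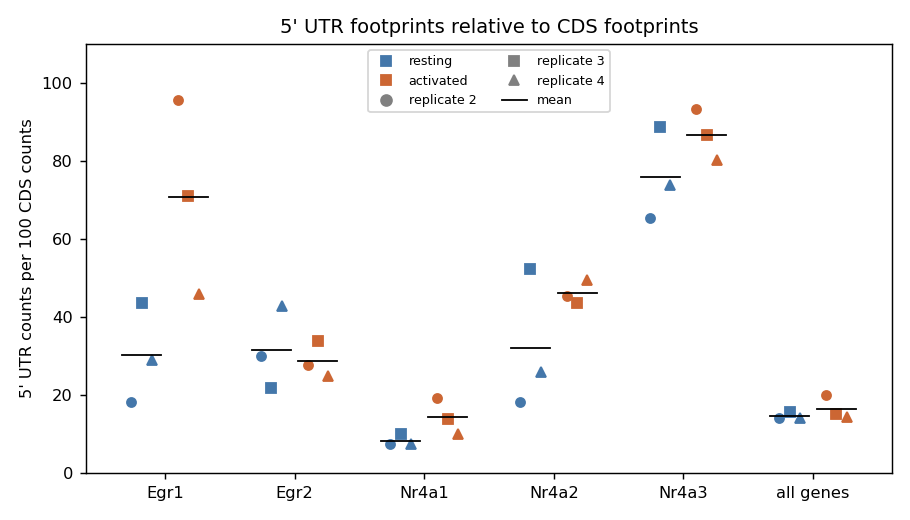
Leader (5' UTR) counts per 100 CDS counts for 5 of the genes and for all genes summed, per library, with resting libraries in blue, activated libraries in orange and a line at each mean. Egr1 and Nr4a1 lie higher in every activated library than in every resting one, as did 14.4% of 5046 genes, and neither change passed its test; the other 3 genes and the sum over all genes overlap.

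Counts in the 3' UTR were sparse. Egr1, Nr4a1 and Nr4a3 were tested there, each of them admitted by its activated libraries alone, and 17.6% of the 131 genes tested rose. Egr1 had 0 counts in each resting library and 26, 20 and 16 in the activated ones, at least 15.3-fold higher when the resting group is set at 3 counts in all (adjusted p = 0.000776 in edgeR). Nr4a1 had 1, 2 and 0 at rest and 59, 37 and 27 after activation, and Nr4a3 had 2, 2 and 4 at rest and 33, 57 and 79 after activation. The groups did not overlap for these 3 genes, nor for 20.6% of all genes tested. Per 100 CDS counts the activated libraries held 0.22 to 3.5 such counts for each gene but Nr4a2, which had 0, 4 and 8 counts. Over all genes summed the activated libraries held 4.29, 2.29 and 1.39. For Nr4a3 the ratio was 4.08, 3.77 and 4.55 at rest and 2.18, 3.5 and 2.87 after activation, lower without overlap, which held for 12.1% of the 107 genes tested on the 3' UTR that had a CDS count in every library. This ratio was not tested.

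Nr4a3 had intronic counts of 3, 4 and 3 at rest and 79, 122 and 225 after activation. The groups did not overlap, as for 20.9% of the 393 genes tested on introns, and the log2 change was 5.15 (SE 0.45; adjusted p = 0.000464 in edgeR). Nr4a1 had 0, 1 and 2 at rest and 18, 41 and 54 after activation (log2 change 4.87, SE 0.61; adjusted p = 0.00154 in edgeR). Both entered the test through their activated libraries, and 11.2% of all genes tested on introns rose. Per 100 CDS counts, Nr4a3 held 5.69 ± 2.1 intronic counts at rest and 6.97 ± 1.54 after activation (SD, n = 3), with overlapping groups. Over all genes summed the values were 16.9 ± 7.96 and 8.18 ± 1.85, so both means of Nr4a3 lay below those of the whole table. Nr4a1 held 0.586 ± 0.536 and 0.619 ± 0.173, and Egr1 had 0 intronic counts in every library. The remaining genes, Egr2, Egr3 and Nr4a2, had at most 5 in a library and were not tested.

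Of the 6 genes, Nr4a1 differed most between the CDS columns. Intersection-nonempty mode is a counting rule for records that overlap a feature only in part or overlap several. In that mode Nr4a1 had 120.2 ± 3.8 counts per 100 of the main column at rest and 113 ± 3.3 in activated cells (SD, n = 3). What set the columns apart at Nr4a1 was not tested. For the other 5 genes the resting means were 102 to 108 and the activated means 102 to 108. The log2 changes under this mode are among the alternatives plotted for the CDS change.

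**Figure D5:**
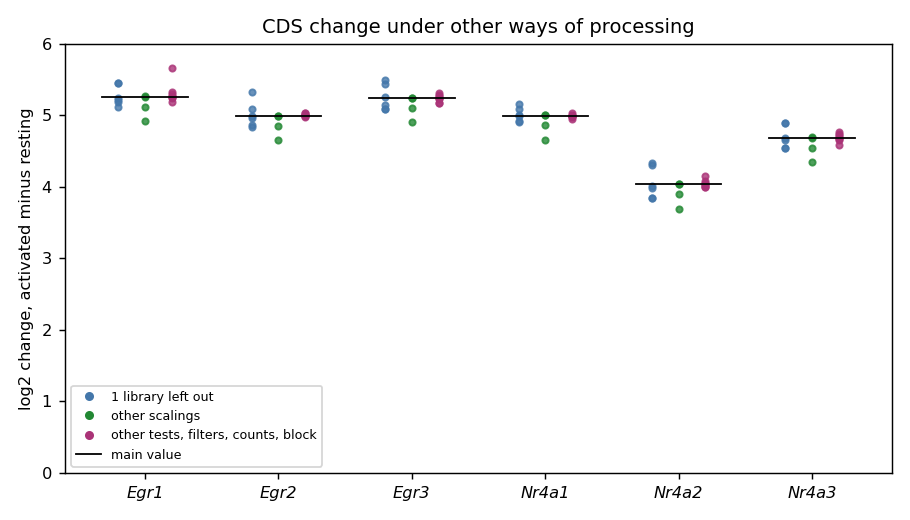
Log2 change of CDS footprints (activated minus resting) of each gene under 18 alternatives: each library left out (blue), other scalings (green) and other tests, filters, counts and the replicate block (purple), with a line at the main value. All points lie between 3.70 and 5.67, and Nr4a2 has the lowest main value.

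Genes with a profile over the 6 libraries like the mean profile of the 6 genes were sought by Pearson correlation of log2 CPM among 6769 other genes. The closest were ENSMUSG00000052013.13 (r = 0.9995) and ENSMUSG00000015316.11 (r = 0.9989), whose symbols the files do not pair with their identifiers. Their log2 changes were 2.67 (SE 0.21; adjusted p = 6.04e-08 in edgeR) and 3.80 (SE 0.18; adjusted p = 2.5e-10 in edgeR). ENSMUSG00000052013.13 had 13, 16 and 20 CDS counts in the resting and 81, 129 and 182 in the activated libraries. With 2 groups far apart, r mostly measures the step between them, and 134 of the 6769 genes had an r above 0.99.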

How the data were processed

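The deposited file is a table of raw counts per gene: 22322 genes, and for each of the 6 libraries columns of CDS records in 2 modes, 5' UTR, 3' UTR, exon and strictly intronic records, per the file headers. The submitters' processing notes name TopHat2 2.0.13, Bowtie 1.1.1.0, HTSeq and build mm10. Annotation release, trimming, length limits and strand use were not found in the sources used here. Columns were matched to libraries by the library name in the labels. Summary rows were kept out; of the CDS records of a library, 65.8% to 79.6% aligned more than once and 11.8% to 14.5% lay in no CDS.

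Counts were tested in edgeR 4.0.16 on R 4.3.3 (filterByExpr, TMM, estimateDisp, glmQLFit and glmQLFTest). P-values are two-sided and adjusted by Benjamini-Hochberg over the genes tested. SE is the log2 change over the square root of F. CPM uses the TMM-scaled totals of tested genes, per region. The 5' UTR was set against the CDS in 1 model with a term per library, for genes with at least 10 counts in each region. Ratios of paralogues used a pseudocount of 0.5 and exact two-sided permutation over 20 assignments. The fits were also run on simulated counts, and no result given here rests on those runs. Alternatives used DESeq2 1.42.0 and limma 3.58.1.

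The members and lists were chosen with earlier results of these data known. The fits of 3' UTR and intronic counts, the motif search, the thinned counts, TMM factors without the 6 genes and the shares of genes whose ratios to the CDS do not overlap were added after seeing the data. The genes named were the 6 members and the closest profiles among genes with a mean of at least 10 CPM. No table used here pairs the other identifiers with symbols, so the lists of partners, target genes, other immediate early genes and cell type markers were not counted, and the cell type was not checked by markers. Coding lengths were not used, so levels were not compared between genes.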

Additional observations from a re-analysis of the deposited data

How the results depend on the processing

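For CDS counts, each of the 6 genes stayed higher and past the threshold under each of 18 alternatives, with log2 changes of 3.70 to 5.67 and an adjusted p of at most 1.13e-06 (edgeR, DESeq2 or limma). The lowest values, 3.70 to 4.92, came with library totals alone, where the median of all genes was -0.375 against -0.0384 with TMM. For 5' UTR counts the 5 genes tested did so under each of 13 alternatives, at 3.84 to 6.31. Leaving out each library gave 6 to 6 genes called in the CDS, 5 to 5 in the 5' UTR, 3 to 3 in the 3' UTR, 2 to 2 in introns and 0 to 0 for the leader ratio. The replicate block changed none of these calls. The library names alternate between activated and resting libraries of the same number, but no label says that same-numbered libraries form pairs. Deviations of same-numbered libraries correlated at 0.129, 0.0739 and 0.233, each library best with its own number. With 1 value under 0.1, the numbers were not taken to pair the libraries, and a pairing remains possible. Ratios of paralogues were tested without pairing only. Asking for more than 2-fold, glmTreat called 716 genes in the CDS against 3082, the 6 genes among them.

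None of the 5 members tested passed on the ratio of 5' UTR to CDS counts under 12 alternatives. The change of Nr4a3 turned from -0.11 to 0.033, 0.064 and 0.19 with upper quartile factors, library totals alone and 1 scaling for both regions. With a library left out it was -0.20 to 0.0068, above 0 without activated replicate 2, and that of Nr4a2 was -0.0081 to 0.62, below 0 without activated replicate 4. Over all genes this ratio changed in 18 genes, in 11 with upper quartile factors, 2 with 1 scaling, 28 with the replicate block and 2 to 30 with a library left out. Of 3' UTR counts 25 to 59 genes were called with a library left out, against 39. On introns 40 were called with library totals alone, 40 without activated replicate 3 and 30 without resting replicate 3, against 62. The cause was not tested.

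The differences in paralogue ratio ranged, with each library left out, from -0.19 to 0.52 for Egr1 to Egr2, -0.13 to 0.36 for Egr1 to Egr3 and -0.50 to 0.31 for Egr2 to Egr3. The sign turned without resting replicate 2 for Egr1 to Egr3 and without resting replicate 3 for the other two. They ranged from 0.78 to 1.19 for Nr4a1 to Nr4a2, 0.23 to 0.38 for Nr4a1 to Nr4a3 and -0.86 to -0.47 for Nr4a2 to Nr4a3. Few resting counts, 5 to 38 per library for all but Nr4a1 and Nr4a3, limit these ratios.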
